A study of Mus musculus with 8 samples.

Results

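Genes of the integrated stress response were followed in hearts of mice with a cardiomyocyte knockout of Elmsan1. They are 10 in number: Ddit3, Atf4, Atf5, Trib3, Asns, Chac1, Slc7a1, Aldh1l2, Mthfd2 and Gdf15. The genes were taken by symbol from the 45706 gene identifiers of the deposited table. All 10 were found and all 10 passed the filter on low counts, which left 15289 genes for testing. RNA was sequenced from whole hearts of 8-week-old male mice, 1 library a heart. The knockout group (cKO, n = 4) carried Elmsan1 fl/fl with 1 αMHC-Cre transgene (aMHC-Cre+/-). The floxed controls (n = 2) carried Elmsan1 fl/fl without Cre, and the Cre controls (n = 2) carried aMHC-Cre+/- without floxed alleles, so the cKO hearts share the alleles with the former and the transgene with the latter. The αMHC (Myh6) promoter drives Cre in cardiomyocytes, whereas whole heart also holds endothelial cells, fibroblasts and macrophages. The protein encoded by Elmsan1 (Mideas) belongs to a histone deacetylase complex named MiDAC.

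The integrated stress response begins when a kinase phosphorylates the translation initiation factor eIF2, which lowers protein synthesis in general while the mRNA of the transcription factor ATF4 is translated more. ATF4, with partners such as C/EBP proteins, switches on genes for amino acid uptake and synthesis, mitochondrial folate metabolism, the transcription factor CHOP (encoded by Ddit3) and the secreted factor GDF15. In heart and skeletal muscle the pathway is best known as a response to mitochondrial dysfunction. Since ATF4 is controlled largely at translation, transcript counts show only part of it.

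Totals were 17509564 to 25833259 estimated counts a library, and mitochondrial transcripts took 22.1 to 29.3% of them. Elmsan1 itself was at 12.0 to 15.5 CPM in the cKO hearts and at 25.3 to 28.6 CPM in the controls, without overlap. Levels are in CPM, which are counts scaled to one common library size. All 8 cardiomyocyte markers examined were present, with a summed level of 44577 to 53900 CPM in cKO and 53793 to 57609 CPM in controls, and 2 of them were called higher and 3 lower. Summed endothelial markers were at 1040 to 1215 CPM in cKO and 764 to 844 CPM in controls, and 4 of 6 were called higher and 1 lower. Macrophage markers were at 165 to 220 CPM and 101.7 to 119 CPM, with 5 of 6 called higher. Fibroblast markers were at 749 to 912 CPM and 565 to 762 CPM, with 1 of 6 called higher. Smooth muscle and pericyte markers were at 536 to 928 CPM and 621 to 707 CPM. Of 4 lymphocyte markers Cd3e and Ms4a1 were near 0, and the sum reached 2.79 CPM at most. The part of these shifts in the changes below was not tested, and in whole heart fewer cells of a type cannot be told apart from less RNA per cell.

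The 10 genes did not move together. In cKO relative to the averaged control groups, Ddit3, Trib3, Mthfd2, Atf5 and Atf4 were higher, Slc7a1 and Aldh1l2 were lower, and Asns, Chac1 and Gdf15 did not pass the test. A gene is called here when its p from edgeR's quasi-likelihood test, adjusted by Benjamini and Hochberg's method over all 15289 genes, was under 0.05. The background was high, as 25.6% of all tested genes were called higher and 26.5% lower in this contrast, 52.1% in all. Of the 10 genes, 5 were higher and 2 lower. The median log2 fold change of the 10 was 0.54, and that of all tested genes 0.04. No overlap between cKO and control hearts was seen for Ddit3, Atf5 and Trib3 (all cKO above, as in 23.4% of all tested genes) and for Slc7a1 and Aldh1l2 (all cKO below, as in 25.9%).

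**Figure D1:**
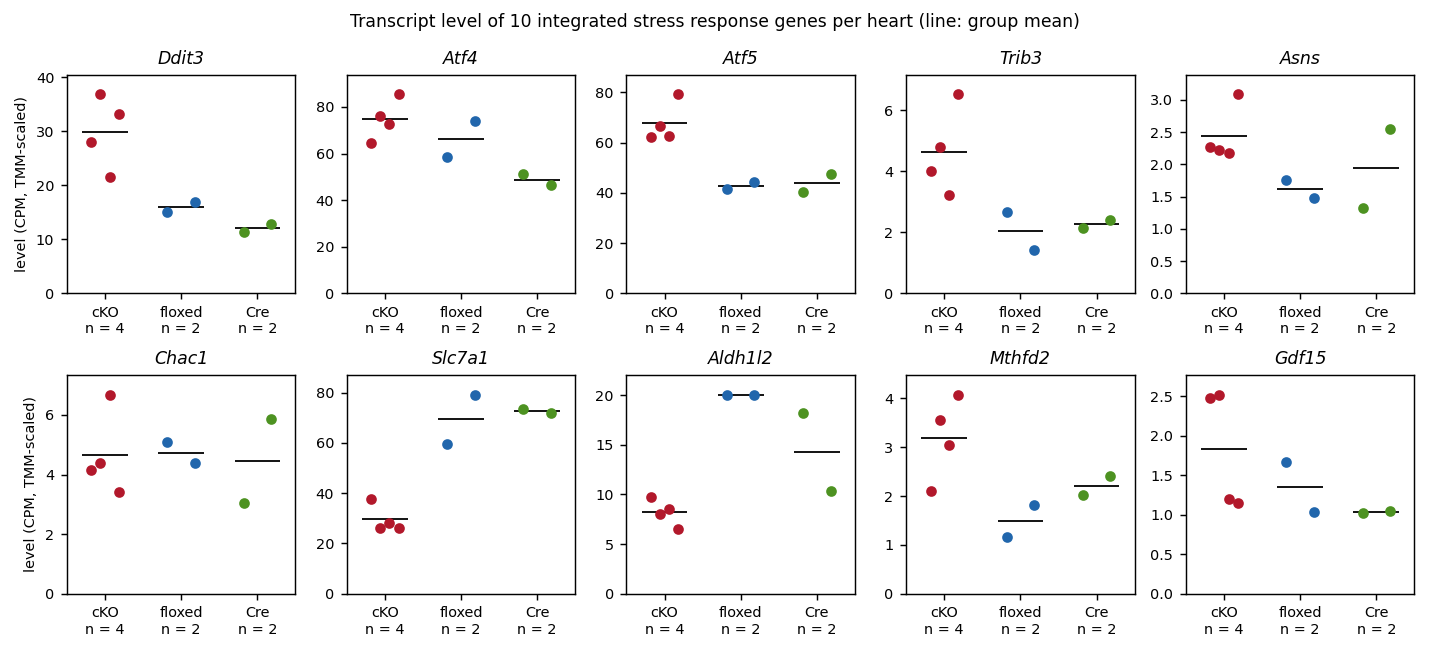
Level of each gene in each heart, in CPM on a linear axis from 0, for 4 cKO, 2 floxed and 2 Cre hearts, where points are hearts and the line is the group mean. The cKO points lie above all control points for Ddit3, Atf5 and Trib3 and below them for Slc7a1 and Aldh1l2, and overlap with them for the other 5 genes.

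Of the transcription factors in the set, Ddit3 rose most, by the same fold as Trib3. Ddit3 (ENSMUSG00000025408, GRCm38 chr10:127290774-127296288, plus strand) encodes CHOP, a factor linked to cell death under lasting stress. Its level was 28.1, 36.9, 21.6 and 33.2 CPM in cKO replicates 1 to 4, 15.0 and 16.9 CPM in the floxed hearts, and 11.4 and 12.9 CPM in the Cre hearts. The lowest cKO heart was thus above the highest control heart. The rise was 2.15-fold (log2 1.11, SE 0.16; edgeR adjusted p = 0.000206). It was called against either control group alone, with log2 0.91 against floxed (edgeR adjusted p = 0.00388) and 1.30 against Cre (edgeR adjusted p = 0.000649). Against floxed the call was lost without floxed replicate 1 (log2 0.82, edgeR adjusted p = 0.0541). Ddit3 overlaps Mars, which lies on the other strand, and the strand setting of the counting is not given in the sources used here. Mars was not called (log2 0.09, SE 0.08), and a second overlapping gene, Gm4189, had at most 8 reads in a library. Another coding gene entry, also named Ddit3, overlaps it on the same strand and has no counts of its own here.

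Atf5, an ATF4 relative that is linked to mitochondrial protein stress, rose 1.56-fold with little spread. It (ENSMUSG00000038539, GRCm38 chr7:44812256-44816658, minus strand) was at 62.3, 66.7, 62.8 and 79.2 CPM in cKO, 41.5 and 44.3 CPM in floxed, and 40.2 and 47.4 CPM in Cre. All cKO hearts were above all controls, and the control groups lay together. The log2 fold change was 0.64 (SE 0.10; edgeR adjusted p = 0.000388), with 0.66 against floxed and 0.63 against Cre. The coding gene Nup62, on the other strand, overlaps Atf5 and has no counts here. Il4i1, also on the other strand, overlaps Atf5 and was not called (log2 -0.26, SE 0.24) except as lower with an offset for length and GC content (-0.64, edgeR adjusted p = 0.0440). The Atf5 call was lost with that offset (log2 0.12, edgeR adjusted p = 0.315).

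Atf4, the central factor of the response, rose less and less evenly. It (ENSMUSG00000042406, GRCm38 chr15:80255184-80257541, plus strand) was at 64.7, 76.3, 72.6 and 85.4 CPM in cKO, 58.3 and 74.1 CPM in floxed, and 51.1 and 46.6 CPM in Cre. Floxed replicate 2 lay within the cKO range. The rise was 1.31-fold (log2 0.39, SE 0.11; edgeR adjusted p = 0.0111). It was called against Cre (log2 0.61, SE 0.14; edgeR adjusted p = 0.00470) and not against floxed (log2 0.18, SE 0.14; edgeR adjusted p = 0.317). The difference between these contrasts, which is Cre against floxed, was -0.44 on the log2 scale (SE 0.16) with an unadjusted p of 0.0170 from edgeR and an adjusted p of 1.0. The call in the main contrast was lost without floxed replicate 1 (log2 0.31, edgeR adjusted p = 0.0666), without Cre replicate 2 (0.34, 0.0596) and without both Cre libraries (0.17, 0.349). Against Cre it was lost without Cre replicate 2 (log2 0.51, edgeR adjusted p = 0.0739).

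Trib3, a pseudokinase that is induced by ATF4 and CHOP and restrains ATF4, was expressed at a low level and rose. Its level (ENSMUSG00000032715, GRCm38 chr2:152337422-152344032, minus strand) was 4.00, 4.79, 3.21 and 6.51 CPM in cKO, 2.66 and 1.42 CPM in floxed, and 2.13 and 2.41 CPM in Cre. The groups did not overlap. The rise was 2.15-fold (log2 1.11, SE 0.26; edgeR adjusted p = 0.00476), and it was called against floxed (log2 1.17, edgeR adjusted p = 0.0160) and against Cre (log2 1.04, edgeR adjusted p = 0.0271). These separate calls rested on few hearts. That against floxed was lost without floxed replicate 2 (log2 0.80, edgeR adjusted p = 0.171), and that against Cre without cKO replicate 2 (1.03, 0.0518), Cre replicate 1 (0.95, 0.145) or Cre replicate 2 (1.09, 0.106).

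Of the genes of mitochondrial folate metabolism, Mthfd2 was higher and Aldh1l2 lower. Mthfd2 (ENSMUSG00000005667, GRCm38 chr6:83305691-83325908, minus strand) encodes a mitochondrial methylenetetrahydrofolate dehydrogenase and cyclohydrolase, which is low in most adult tissues. Its level was 2.10, 3.56, 3.04 and 4.07 CPM in cKO, 1.16 and 1.82 CPM in floxed, and 2.01 and 2.41 CPM in Cre. The lowest cKO heart lay below Cre replicate 2. The rise was 1.77-fold (log2 0.83, SE 0.25; edgeR adjusted p = 0.0180), called against floxed (log2 1.11, edgeR adjusted p = 0.0182) and not against Cre (log2 0.54, SE 0.31; edgeR adjusted p = 0.184). In Cre against floxed, Mthfd2 was at 0.57 on the log2 scale (SE 0.37; edgeR adjusted p = 1.0). The main call was lost without floxed replicate 1 (log2 0.67, edgeR adjusted p = 0.0824), without Cre replicate 1 (0.76, 0.0595) and without both floxed libraries (0.54, 0.182), and the call against floxed without floxed replicate 1 (0.81, 0.189).

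Aldh1l2 encodes the mitochondrial 10-formyltetrahydrofolate dehydrogenase, which releases carbon dioxide and makes NADPH. It (ENSMUSG00000020256, GRCm38 chr10:83487450-83534140, minus strand) was at 9.73, 8.05, 8.56 and 6.47 CPM in cKO, 20.003 and 20.044 CPM in floxed, and 18.2 and 10.4 CPM in Cre. All cKO hearts were below all controls, with Cre replicate 2 close to the highest of them. The fall was 2.07-fold (log2 -1.05, SE 0.18; edgeR adjusted p = 0.000713), with -1.29 against floxed (edgeR adjusted p = 0.000847) and -0.81 against Cre (edgeR adjusted p = 0.0115). Without Cre replicate 1, which leaves the low Cre heart alone, the call against Cre was lost (log2 -0.34, edgeR adjusted p = 0.260). A gene on the other strand, D10Wsu102e, overlaps Aldh1l2 and was lower too (log2 -0.38, SE 0.13; edgeR adjusted p = 0.0341), though not with the length and GC offset (-0.16, 0.419).

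Slc7a1, the carrier of arginine and lysine also known as CAT1, showed the largest fall of the 10 genes against all controls and against Cre, while Aldh1l2 fell more against floxed. Its level (ENSMUSG00000041313, GRCm38 chr5:148327410-148399904, minus strand) was 37.6, 26.1, 28.2 and 26.2 CPM in cKO, 59.7 and 79.2 CPM in floxed, and 73.5 and 71.8 CPM in Cre. The groups were far apart. The fall was 2.41-fold (log2 -1.27, SE 0.14; edgeR adjusted p = 4.71e-05), and nearly the same against floxed (-1.23) and Cre (-1.30). It was called in all 21 alternative analyses of the main contrast, with log2 values of -1.41 to -0.96. Ddit3, Trib3 and Aldh1l2 were also called in all 21.

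Asns, Chac1 and Gdf15, often read as indicators of ATF4 activity, did not pass the test. Asns (ENSMUSG00000029752, GRCm38 chr6:7675169-7693254, minus strand), which makes asparagine, was at 2.26, 2.22, 2.18 and 3.08 CPM in cKO, 1.76 and 1.47 CPM in floxed, and 1.33 and 2.56 CPM in Cre. Cre replicate 2 exceeded 3 of the cKO hearts. The log2 fold change was 0.47 with a 95% interval of -0.09 to 1.03 (edgeR adjusted p = 0.146), and without Cre replicate 2 it was called (0.71, edgeR adjusted p = 0.0486). Gdf15 (ENSMUSG00000038508, GRCm38 chr8:70629393-70632456, minus strand), a circulating factor released under mitochondrial stress, was at 2.47, 2.52, 1.20 and 1.14 CPM in cKO, 1.67 and 1.03 CPM in floxed, and 1.03 and 1.05 CPM in Cre. Replicates 1 and 2 of cKO were above all controls, and replicates 3 and 4 were within the control range. Its log2 fold change was 0.61 with a 95% interval of -0.14 to 1.36 (edgeR adjusted p = 0.152), on 21 to 51 reads a library.

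Chac1 (ENSMUSG00000027313, GRCm38 chr2:119351229-119354381, plus strand), which breaks down glutathione, was at 4.16, 4.40, 6.68 and 3.43 CPM in cKO, 5.10 and 4.37 CPM in floxed, and 3.04 and 5.86 CPM in Cre. The groups overlapped, although cKO replicate 3 was above every control and Cre replicate 1 below every cKO heart. The log2 fold change was 0.03 with a 95% interval of -0.53 to 0.59 (edgeR adjusted p = 0.933).

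**Figure D2:**
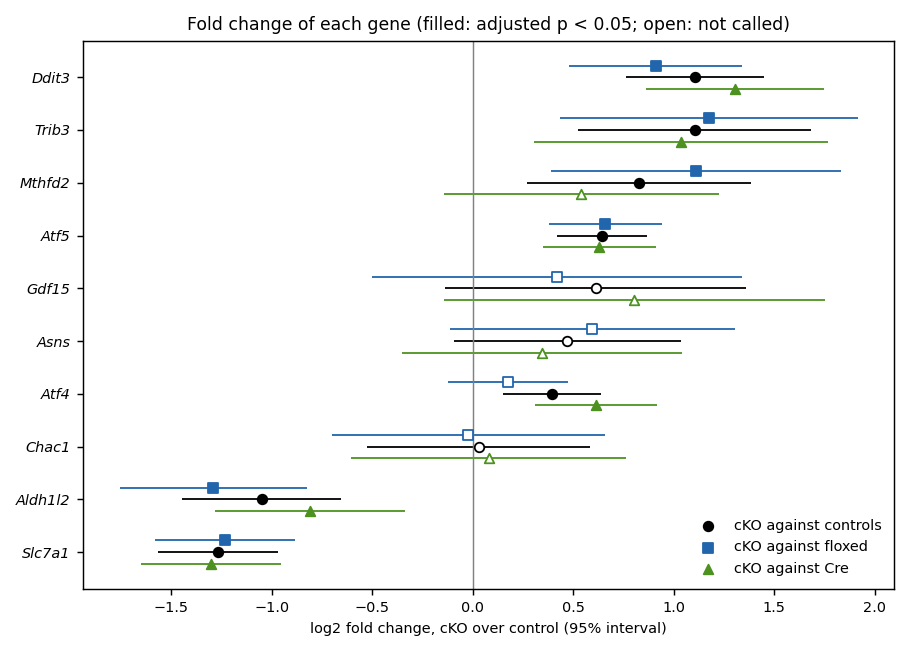
Log2 fold change of each gene with its 95% interval, for cKO against the mean of both control groups (circles), against floxed (squares) and against Cre (triangles), where filled symbols were called. Slc7a1 and Aldh1l2 lie left of 0 in all 3 comparisons, and all the other genes but Chac1 lie right of it. The intervals of Asns, Gdf15 and Chac1 include 0 in all 3, as do those of Atf4 against floxed and Mthfd2 against Cre.

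The separate comparisons share the cKO hearts. Against floxed 4 of the 10 genes were higher and 2 lower, where 19.8% and 23.1% of all tested genes were, 42.9% in all. Against Cre 4 were higher and 2 lower, where 19.6% and 22.8% were, 42.4% in all. In Cre against floxed none of the 10 was called by edgeR, DESeq2 or limma voom, and Atf4 alone had an unadjusted p under 0.05 in each of the 3 tests. In that contrast 0.0981% of all genes (15 genes) were called by edgeR, 0.00654% higher and 0.0916% lower.

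Per kilobase of the longest annotated transcript, the control hearts held most Atf4 (28.5 CPM per kb, 23.1 to 36.7 over 4 hearts), then Atf5 (23.9, 22.2 to 26.1), Ddit3 (14.5, 11.7 to 17.4) and Slc7a1 (9.90, 8.31 to 11.03). Atf4 and Atf5 overlapped in this range, whereas Atf5 and Ddit3 did not. Aldh1l2 (2.85 CPM per kb) and Chac1 (2.81) followed, and Trib3, Mthfd2, Asns and Gdf15 lay at 0.77 to 1.06 CPM per kb with overlapping ranges. In cKO the mean level of Ddit3 was 30.9 CPM per kb, close to Atf4 (37.0) and Atf5 (37.3), while Slc7a1 stood at 4.11. Fold changes followed transcript length in all genes (below), and the part of that trend in these cKO levels was not tested. Within the cKO group the hearts differed by 1.27-fold (Atf5) to 2.21-fold (Gdf15) between lowest and highest. Replicate 4 had the highest level of 5 genes, Atf4, Atf5, Trib3, Asns and Mthfd2, and the lowest of Chac1, Aldh1l2 and Gdf15. Replicate 3 had the highest Chac1 and the lowest Ddit3, Trib3 and Asns.

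The genes that fell were the long transcripts of the set. Slc7a1 (7179 bp) and Aldh1l2 (6027 bp) have the longest transcripts, the other 8 run from 969 bp (Ddit3) to 2085 bp (Mthfd2), and fold changes in this contrast followed length in all genes. The median log2 fold change was 0.79 among 532 coding genes up to 1000 bp, 0.40 among 2215 from there to 2000 bp, 0.05 among 5635 up to 4000 bp and -0.20 among 4538 up to 8000 bp. Ddit3 (1.11) lay between the quartiles of its length class (0.49 and 1.14), as did Atf5, Chac1, Gdf15, Asns and Atf4 in theirs. Trib3 and Mthfd2 lay above the upper quartile of their class, and Slc7a1 and Aldh1l2 below the lower quartile of theirs. Because fold changes followed length, a smooth offset for transcript length and GC content, fitted in each library, was used as an alternative. With it Ddit3 (log2 0.74, edgeR adjusted p = 0.00184), Trib3 (0.72, 0.0360) and Mthfd2 (0.80, 0.0234) were still called higher, and Slc7a1 (-0.96, 0.000175) and Aldh1l2 (-0.68, 0.00772) lower. Atf4 (0.12, SE 0.10, edgeR adjusted p = 0.345) and Atf5 (0.12, SE 0.09, edgeR adjusted p = 0.315) were not. Over the 21 alternatives, this offset included, the adjusted p of edgeR, DESeq2 or limma voom was 0.00270 to 0.349 for Atf4 and 2.46e-07 to 0.315 for Atf5. Atf4 was called in 16 of them and Atf5 in 20, with the offset the only alternative in which Atf5 was not called. Gdf15 moved to 0.04 and Chac1 to -0.42, neither called, and Asns stayed at 0.49. That made 3 higher and 2 lower of 10, where 22.6% and 23.3% of all genes were called with the offset, 45.9% in all. The median of the 10 genes was then 0.12 and that of all genes 0.05. Against Cre alone the offset left only Ddit3 called higher and Slc7a1 called lower. Of all 15289 genes, 2400 were called higher and 2854 lower in that fit.

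**Figure D3:**
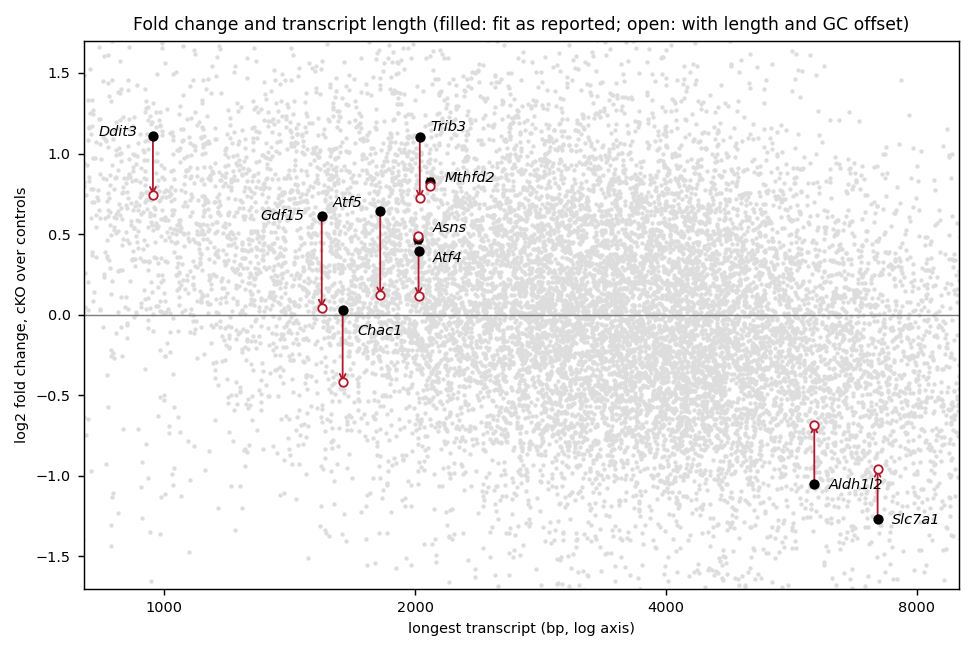
Log2 fold change of cKO over controls against the length of the longest transcript in bp (log axis), with all tested genes inside the axes in grey and the 10 genes as filled points, arrows leading to their values with the length and GC offset (open points). Slc7a1 and Aldh1l2 are at the long end and move toward 0, to -0.96 and -0.68. Ddit3, Trib3, Atf4, Atf5, Gdf15 and Chac1 move to lower values. Ddit3 moves to 0.74, Trib3 to 0.72, Atf4 and Atf5 to 0.12 and Chac1 to -0.42.

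ATF4 is known to act through a C/EBP-ATF response element, which was looked for here as TGATGNAA on both strands of RefSeq promoter windows (GRCm38.p6, 250 bases before to 50 after the start). Windows were found for 9 of the 10 genes, all but Aldh1l2, 12 windows in all. Asns, Chac1 and Trib3 held a match, in 3 of the 12 windows, and 3.97% of all 32851 windows did. Asns matched at positions -23 to -16 from the start and Chac1 at -193 to -186 on the other strand. The match of Trib3, TTACATCA, lies at 15 to 22 after the start. A match is only a description, and sites can lie outside these windows. The full cyclic AMP response element TGACGTCA was in none of the 12 windows, and in 1.79% of all. A CCAAT box (CCAAT on either strand, which binds NF-Y) was in 7 of the 12 windows, each of another gene, and in 37.4% of all windows. Genes with a match thus include Trib3, which rose, and Asns and Chac1, which were not called. The 2 windows with a match before the start are shown with those of Ddit3 and Mthfd2, which rose and hold no match. Capitals mark the TGATGNAA match in Asns (chr6:7693210-7693309, minus strand) and Chac1 (chr2:119351012-119351111, plus strand), and CCAAT boxes only in Ddit3 (chr10:127290693-127290792, plus strand) and Mthfd2 (chr6:83317605-83317704, minus strand). The Chac1 stretch also holds a CCAAT box, at -150 to -146, left in lower case.
Asns: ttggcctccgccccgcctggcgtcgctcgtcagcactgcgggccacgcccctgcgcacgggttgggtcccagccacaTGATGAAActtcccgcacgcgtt
Chac1: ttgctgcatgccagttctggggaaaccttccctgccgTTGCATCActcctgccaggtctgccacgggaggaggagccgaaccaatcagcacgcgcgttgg
Ddit3: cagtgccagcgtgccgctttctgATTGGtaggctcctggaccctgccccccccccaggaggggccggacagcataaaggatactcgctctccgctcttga
Mthfd2: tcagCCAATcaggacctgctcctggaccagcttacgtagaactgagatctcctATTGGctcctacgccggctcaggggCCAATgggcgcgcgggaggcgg

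Upstream of ATF4, transcripts of the eIF2 machinery moved in both directions. A list of 19 genes held those for eIF2 kinases, eIF2, its exchange factor eIF2B and its phosphatase, and also Oma1, Dele1, Gcn1l1, Impact and Dnajc3. Of the 19, 8 were lower and 3 higher, with a median log2 fold change of -0.33. Oma1, Dele1 and Dnajc3 were among the lower genes and Impact among the higher. With the length and GC offset 6 of the 19 were lower and 2 higher, and the median was -0.0785. For the counts of this and the following lists, 25.6% of all tested genes were higher and 26.5% lower. With the offset these shares were 22.6% and 23.3%. None of the 4 eIF2 kinases was called by edgeR, although Eif2ak2 and Eif2ak3 had unadjusted p-values of 0.0308 and 0.0334, and limma voom called Eif2ak3 (adjusted p = 0.04997). Eif2ak1 (HRI) was at -0.15 (95% interval -0.35 to 0.04), Eif2ak2 (PKR) at -0.35 (-0.67 to -0.04), Eif2ak3 (PERK) at -0.33 (-0.62 to -0.03) and Eif2ak4 (GCN2) at -0.04 (-0.30 to 0.23). Eif2ak2 was called lower with no low-count filter (-0.37, edgeR adjusted p = 0.0309), without cKO replicate 3 (-0.44, edgeR adjusted p = 0.0375) or floxed replicate 1 (-0.48, 0.0196), and Eif2ak3 without cKO replicate 1 (-0.41, 0.0341). With the length and GC offset Eif2ak2 was at -0.0785 (edgeR adjusted p = 0.668) and Eif2ak3 at -0.19 (0.253), neither called. Eif2ak1 changed sign with the length and GC offset (0.04), as did Eif2ak4 with that offset and under other scalings. Eif2s3x, the gamma subunit of eIF2, fell 2.18-fold (log2 -1.12, SE 0.10). Dele1, which carries the signal of mitochondrial stress to HRI, fell 1.63-fold (log2 -0.71, SE 0.08).

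Ppp1r15a encodes GADD34, the inducible subunit of the phosphatase that ends the response, and is itself a CHOP and ATF4 target. It was at 20.8, 23.2, 18.2 and 20.2 CPM in cKO, 50.5 and 48.3 CPM in floxed, and 35.1 and 21.9 CPM in Cre. Cre replicate 2 lay within the cKO range. Ppp1r15a fell 1.82-fold (log2 -0.87, SE 0.14; edgeR adjusted p = 0.000441), with -1.26 against floxed and -0.47 against Cre, and the call was lost without both floxed libraries (-0.47, edgeR adjusted p = 0.0657). The constitutive subunit gene Ppp1r15b fell 1.29-fold (log2 -0.37, SE 0.10; edgeR adjusted p = 0.00972), a call lost with the length and GC offset (-0.05, 0.687) and with scaling by library size alone (-0.23, 0.106).

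Among 5 transcription factors that work with ATF4 or CHOP, edgeR called 1 higher, also with the length and GC offset. Nupr1, a small stress-induced chromatin protein, was at 6.73, 9.88, 6.68 and 15.6 CPM in cKO, 3.73 and 4.67 CPM in floxed, and 5.05 and 3.81 CPM in Cre. All cKO hearts were above all controls, and the rise was 2.26-fold (log2 1.18, SE 0.28; edgeR adjusted p = 0.00671; 1.19 with the length and GC offset). Cebpb was at 57.9 and 61.7 CPM in cKO replicates 1 and 2 and at 122 and 109 CPM in replicates 3 and 4, against 31.7 to 81.0 CPM in controls (log2 0.73, SE 0.28; edgeR adjusted p = 0.0599). It was called without cKO replicate 1 (0.88, edgeR adjusted p = 0.0201), cKO replicate 2 (0.88, 0.0324) or both floxed libraries (1.21, 0.0429). DESeq2 (0.73, adjusted p = 0.00327) and limma voom (0.67, adjusted p = 0.0404) called Cebpb higher, as did edgeR without robust fitting, with upper-quartile scaling, with library size alone and with the filter at 1 CPM (adjusted p = 0.0275 to 0.0479). With the length and GC offset it was at 0.18 (edgeR adjusted p = 0.603). Atf3 was at 5.10 to 18.8 CPM in cKO, 45.5 and 220.7 CPM in floxed, and 9.23 and 21.3 CPM in Cre. Its log2 fold change of -2.07 (SE 0.70; edgeR adjusted p = 0.0530) was carried by the floxed hearts (-3.64 against floxed and -0.50 against Cre). DESeq2 (adjusted p = 0.00497) and limma voom (adjusted p = 0.0142) called it, and edgeR did without cKO replicate 2 (-2.48, adjusted p = 0.0415), floxed replicate 1 (-2.44, 0.0216) or both Cre libraries (-3.64, 0.0233).

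Other genes for amino acid uptake moved in both directions. Of 13 transporter genes 11 were tested, 4 of them higher and 2 lower, with a median log2 fold change of 0.36. Slc1a5, the glutamine carrier ASCT2, was at 52.7, 82.0, 75.6 and 88.7 CPM in cKO and at 26.5 to 29.2 CPM in the 4 controls. It rose 2.66-fold (log2 1.41, SE 0.14; edgeR adjusted p = 4.34e-05; 1.18 with the length and GC offset). Slc38a1 and Slc38a2, the neutral amino acid carriers SNAT1 and SNAT2, fell 1.78-fold (log2 -0.83, SE 0.10) and 1.88-fold (log2 -0.91, SE 0.14). The paralogue of Slc7a1, Slc7a2, was not called (log2 0.26, SE 0.18) but was with the offset (0.75, edgeR adjusted p = 0.00408). Slc7a3 had at most 9 reads in a library and was not tested.

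Of 9 serine, glycine and folate enzymes 2 were higher and 3 lower (median log2 0.19). Mthfd1, the cytosolic enzyme related to Mthfd2, fell 1.76-fold (log2 -0.82, SE 0.15), and the mitochondrial Shmt2 fell 1.27-fold (log2 -0.35, SE 0.09), a call lost with scaling by library size alone (-0.22, edgeR adjusted p = 0.0978). Aldh1l1, the cytosolic counterpart of Aldh1l2, went the other way, with 4.64 to 7.21 CPM in cKO and 3.27 to 4.11 CPM in controls (log2 0.65, SE 0.18; edgeR adjusted p = 0.0103). Without both Cre libraries this call was lost (0.59, edgeR adjusted p = 0.0566). Mthfd2l, a second mitochondrial relative of Mthfd2, was not called (log2 0.19, SE 0.15), except with the offset (0.47, edgeR adjusted p = 0.0317). Of 5 further amino acid enzymes only Gpt2, an alanine aminotransferase, was called, with a log2 fold change of -0.58 (SE 0.11).

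Among relatives of the remaining members, Chac2 fell 1.78-fold (log2 -0.83, SE 0.13), while Trib2 (log2 -0.07, SE 0.08) was not called and changed sign under other scalings. Trib1 was lower (log2 -0.52, SE 0.17; edgeR adjusted p = 0.0265), a value that rested on the floxed hearts (-0.05 without them, edgeR adjusted p = 0.858). Its call was also lost without cKO replicate 1 (-0.47, edgeR adjusted p = 0.0574), 2 (-0.43, 0.0768) or 4 (-0.53, 0.0557), floxed replicate 2 (-0.39, 0.0932) or Cre replicate 2 (-0.44, 0.0826). In the paralogue list as a whole, 1 of 8 tested genes was higher and 3 were lower (median log2 -0.30), whereas 3 were higher and 3 lower with the length and GC offset (median log2 -0.22).

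A list of 11 genes for stress hormones and feedback also held Vldlr, Herpud1, Ero1l and the cell death genes Bbc3, Bcl2l11 and Tnfrsf10b. Of these 11 genes 10 were tested, 2 higher and 3 lower (median log2 0.01), and 1 higher and 3 lower with the length and GC offset. Vldlr, a lipoprotein receptor that ATF4 can induce, fell 2.17-fold (log2 -1.12, SE 0.13), and Bcl2l11, the pro-apoptotic BIM gene, fell 2.03-fold (log2 -1.02, SE 0.20). With the offset Vldlr was at -0.63 and Bcl2l11 at -0.74, both still called lower. Bbc3, the pro-apoptotic PUMA gene, rose 1.73-fold (log2 0.79, SE 0.23; edgeR adjusted p = 0.0142). That call was lost with the offset (0.30, edgeR adjusted p = 0.255) and without floxed replicate 2 (0.62, 0.0672), Cre replicate 2 (0.70, 0.0554) or both Cre libraries (0.79, 0.0559). Fgf21, the other circulating hormone of the response, had 2 reads at most in a library and was not tested. Of 12 cytosolic tRNA synthetase genes, several of which ATF4 induces, 2 were higher and 6 lower (median log2 -0.10), and 2 higher and 4 lower with that offset. Eprs fell 1.66-fold (log2 -0.73, SE 0.11), Iars 1.61-fold (log2 -0.69, SE 0.10) and Lars 1.40-fold (log2 -0.48, SE 0.09). The 2 higher genes were Cars, up 1.52-fold (log2 0.61, SE 0.12), and Sars, up 1.31-fold (log2 0.39, SE 0.08). With the offset Eprs, Iars and Lars were at -0.35, -0.46 and -0.27, and Cars and Sars at 0.52 and 0.36, all still called.

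Many genes for reticulum and mitochondrial chaperones were lower. Of 18 reticulum chaperone and sensor genes 11 were lower and the other 7 were not called, with a median log2 fold change of -0.37. Atf6, the sensor of a parallel arm, was at 41.1 to 51.0 CPM in cKO and 103.1 to 125.2 CPM in controls (log2 -1.31, SE 0.09; edgeR adjusted p = 1.34e-05). Hspa5, the chaperone BiP, fell 2.09-fold (log2 -1.07, SE 0.11) and Hyou1 1.91-fold (log2 -0.93, SE 0.11). Of 10 mitochondrial chaperone and protease genes 8 were lower and 1 higher (median log2 -0.69), with Hspd1 1.80-fold, Hspa9 1.79-fold and the protease gene Afg3l2 2.04-fold lower. With the length and GC offset 12 of the 18 and 9 of the 10 genes were lower.

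**Figure D4:**
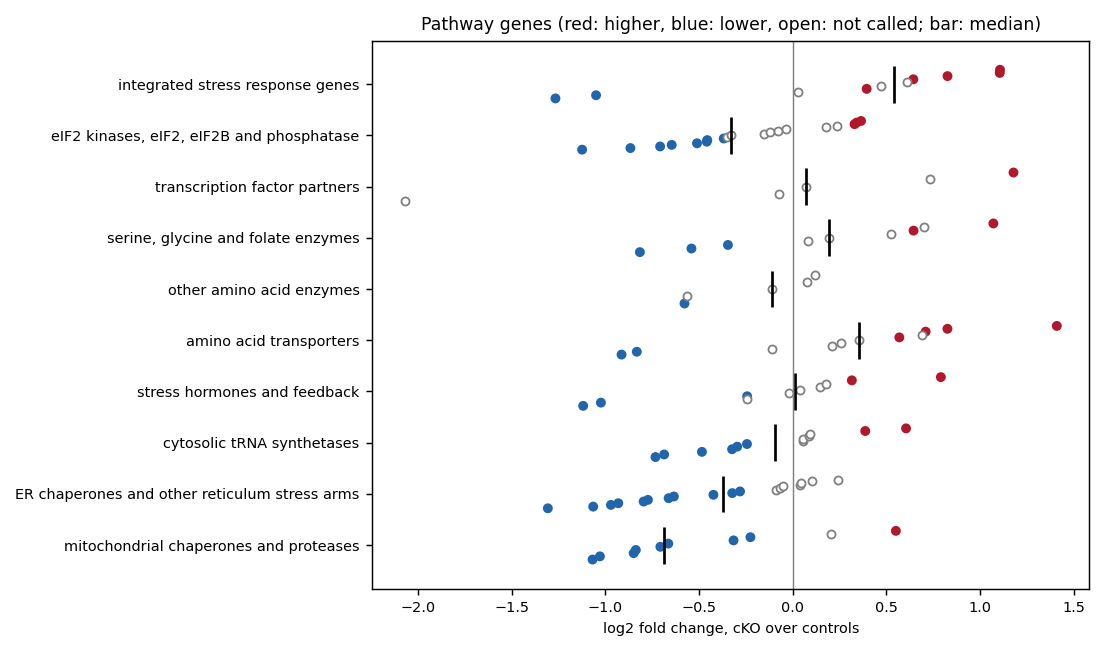
Log2 fold change of cKO over controls for each tested gene of the integrated stress response set and of 9 related lists, in red where called higher, in blue where called lower and open where not called, with a bar at each list's median. The medians run from -0.69 for the mitochondrial chaperones to 0.54 for the integrated stress response genes.

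Across the 8 libraries, the levels most like that of Atf4 among the tested genes of these lists were those of Slc7a7, Cebpb and Eif4ebp1, with Pearson's r of 0.83, 0.81 and 0.80 on log2 CPM. The libraries fall into the genotype groups, so these values describe likeness and carry no test. Slc7a7 rose 1.77-fold (log2 0.83, SE 0.30; edgeR adjusted p = 0.0470), a call lost in 10 of the 21 alternatives, among them without cKO replicate 2 (0.59, edgeR adjusted p = 0.0950), cKO replicate 4 (0.78, 0.120), floxed replicate 1 (0.75, 0.141), floxed replicate 2 (0.88, 0.0953) or Cre replicate 2 (0.60, 0.127). Eif4ebp1, an inhibitor of translation initiation, rose 1.24-fold (log2 0.32, SE 0.10; edgeR adjusted p = 0.0223), a call lost in 6 of 21, among them without cKO replicate 3 (0.25, edgeR adjusted p = 0.0645), floxed replicate 1 (0.31, 0.0774), floxed replicate 2 (0.31, 0.0799), Cre replicate 2 (0.22, 0.127) or both Cre libraries (0.19, 0.227).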

How the data were processed

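RNA-seq of 8 whole hearts (1 library each) was analysed. The table the authors deposited holds an estimated count for each gene and heart, and 71.95 to 76.34% of a library's values above 0 are whole (tolerance 1e-06). Per the submitters' processing notes, STAR 2.5.1b, DESeq2 and the builds mm10 and GRCm38 were used, without roles. For the counting program, annotation and strand setting, nothing is stated by these sources. Raw counts had been planned for, so the estimates were rounded to whole numbers. Symbols, lengths and positions came from GENCODE M21, in which 563 of 45706 identifiers had no symbol, and promoter sequences from RefSeq (GRCm38.p6).

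Genes were filtered with filterByExpr, scaled by TMM and fitted in all 8 libraries with group as the factor by edgeR 4.0.16 (robust quasi-likelihood) in R 4.3.3, with 5 residual degrees of freedom and Benjamini-Hochberg adjustment over 15289 genes. Contrasts were cKO against the mean of both control groups, against each, and Cre against floxed. Alternatives were other scalings, filters, DESeq2 1.42.0, limma voom 3.58.1, pooled controls, a replicate block, a length and GC offset (known for 99.52% of genes) and left-out libraries. The code was tested on simulated data. P-values reflect heart-to-heart spread in this set, and depth limits the genes with few reads.

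The members and lists were chosen with earlier results of these data known. Besides the 10 members, the text names the eIF2 kinases, both Ppp1r15 genes, paralogues, up to 3 called genes a list with the smallest p, and the 3 genes most like Atf4. Fgf21, Cars, Sars, the genes overlapping members and genes named only to show what a list holds were added outside this rule. Equal replicate numbers were not taken to pair the hearts, since their deviations correlated at -0.1079 to 0.1333.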

Additional observations from a re-analysis of the deposited data

Results flagged for a closer look

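In the group of 4 cKO hearts, replicate 4 stood apart from the other 3 for 3 of 48 genes examined, where chance flags about 1 in 20 groups. Its Asns level was 3.08 CPM, above the others, which spanned 2.18 to 2.26 CPM. Its Bbc3 level was 7.05 CPM, also apart from the other 3 hearts. Its Elmsan1 level was 12.0 CPM, below the 15.2 to 15.5 CPM of the others. The cause was not tested.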

How the results depend on the processing

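Ddit3, Trib3, Slc7a1 and Aldh1l2 kept their direction and their call in all 21 alternatives of the main contrast. With the length and GC offset, 3 rather than 5 members were higher against all controls, 2 rather than 4 against floxed and 1 rather than 4 against Cre, and 1 rather than 2 lower against Cre. Of all 15289 genes, the offset fit called 3457 higher against all controls, 2579 against floxed and 2400 against Cre, and 2854 lower against Cre. Leaving out 1 library gave 3 to 5, 2 to 4 and 2 to 4 higher in these contrasts, and 1 to 2 lower against Cre. It gave 3600 to 7037 genes in all called against floxed (6559 with all libraries), 3929 to 6934 against Cre (6484) and 7 to 18 in Cre against floxed (15). That last count was 31 with no filter, 57 with DESeq2, 23 with limma voom and 32 with only the groups compared. The pairing of equal replicate numbers was not established. Replicate numbers 3 and 4 occur only in cKO, so a replicate block leaves the cKO side of a contrast to cKO replicates 1 and 2 alone. With a replicate block 84 genes were called in Cre against floxed and 6372 rather than 7959 in the main contrast. The calls of Atf4 (log2 0.31, edgeR adjusted p = 0.0689) and Mthfd2 (0.62, 0.0851) were then lost, and Gdf15 was called (1.08, 0.0210).

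Some values changed sign, and not all of them were near 0 in the main fit. Chac1 went from 0.03 to -0.0901 with the replicate block, -0.42 with the offset, -0.0234 without both Cre libraries and -0.19 to 0.27 without single libraries. Against floxed (-0.02) it was 0.11 with upper-quartile scaling, 0.12 with library size alone, 0.0062 with a filter at 1 CPM and -0.24 to 0.11 without single libraries. Against Cre (0.08) it was -0.0176 with the replicate block, -0.39 with the offset and -0.33 to 0.58 without single libraries. Asns against Cre (0.35) ran from -0.0616 to 0.84 without single libraries. With the offset, Atf4 and Gdf15 against floxed went from 0.18 and 0.42 to -0.0890 and -0.0924. In the main contrast the offset put Eif2ak1 at 0.0401, Eif2ak4 at 0.22 and Trib2 at 0.0915. Upper-quartile scaling gave 0.0754 for Eif2ak4 and 0.0425 for Trib2, library size alone 0.0925 and 0.0578, and these scalings moved the median of all genes to 0.16 and 0.17. Eif2ak4 was 0.0209 without both Cre libraries and -0.11 to 0.0124 without single libraries. The cause of these shifts was not tested.

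With 2 hearts in each control group, differences between floxed and Cre hearts are poorly resolved. Asns, Gdf15, Mthfd2 and Trib3 rest on 21 to 171 reads a library.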
